A study of Homo sapiens with 16 samples.

Results

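The genes described here encode the subunits of the mitochondrial respiratory chain and of ATP synthase. They were taken by symbol: the NDUFA, NDUFB, NDUFC, NDUFS and NDUFV genes of complex I, SDHA to SDHD of complex II, the UQCR genes of complex III, the COX4 to COX8 genes of complex IV and the ATP5A to ATP5O genes of complex V. This gave 86 genes of the 21453 symbols in the tables, namely 38, 4, 9, 18 and 17 genes for complexes I to V. The symbols also took in COX4NB, which encodes no subunit, and UQCRHL, ATP5EP2 and ATP5L2, copies of other members. Counts of members below include these genes unless stated otherwise. Where a symbol had several transcript rows, which 20 members did, the row with the highest mean level was used. A filter that asked for at least 1 RPKM (reads per kilobase of transcript length per M reads) in at least 2 libraries kept 81 members and 13827 genes in all. The 5 members below it were COX4I2, COX6A2, COX7A1, COX7B2 and COX8C.

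Expression was measured by RNA sequencing in ECC-1, a line from an endometrial cancer, and in T-47D, a line from a breast cancer. Both lines are used as estrogen receptor-positive models, and both were kept in phenol red-free medium with 10% charcoal-stripped serum before treatment, so that all groups share a medium low in steroid hormones. Cells of each line received 0.02% DMSO as the vehicle, 17β-estradiol at 10 nM, bisphenol A (BPA, a plasticizer with estrogenic activity) at 100 nM or genistein (a soy isoflavone) at 100 nM, each for 8 h, with 2 libraries per combination and 16 in all. The dose of estradiol differs from that of the other compounds, so the compounds are not compared at a matched dose. The labels do not say whether the 2 libraries of a group came from separate cultures, so p-values measure the spread between these libraries, which may be technical.

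In oxidative phosphorylation, complexes I and II take electrons from NADH and succinate, complex III passes them through cytochrome c to complex IV, and complex IV reduces oxygen. Complexes I, III and IV pump protons, and complex V, the ATP synthase, uses the resulting gradient to make ATP. Complex II is also an enzyme of the citric acid cycle. The genes studied here lie in the nuclear genome and their proteins are imported, and in complexes I, III, IV and V they join subunits encoded in mitochondrial DNA, which the symbols do not cover.

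The files hold no counts, and a depth of 17.4 to 29.4 M reads per library was estimated from the steps by which low RPKM values rise. Libraries were scaled by a median ratio, and levels below are scaled RPKM, a scale per transcript length on which genes can be compared with each other. The lines carried their own markers: GATA3, a luminal breast factor, had 0.0184 ± 0.00426 (SD, n = 2) in ECC-1 and 300.2 ± 50.3 in T-47D in DMSO, and all 5 Müllerian epithelium markers stayed under 1 in every T-47D library, with sums of 0.439 to 0.745 against 328 to 372 in ECC-1. Keratins KRT8 and KRT18 made the luminal list high in both lines. Fibroblast markers summed to 9.42 to 15.5 in ECC-1, and to 16.9 to 31.8 in T-47D, most of it COL1A1, and their part in the line difference was not tested. Leukocyte sums were 4.51 to 6.64 and 5.16 to 8.37, with PTPRC and CD3E under 1 in every library, and endothelial sums at most 1.88 and 1.28. Muscle markers summed to 6.75 to 8.83 in ECC-1, most of it ACTA1, and to 17.6 to 29.9 in T-47D, where MB led (log2 2.32 in DMSO). CKM and MYH7 were under 1 in every library, and the part of this list in the line difference was not tested. The first estradiol library of each line stood apart: its median correlation with the remaining libraries of the line was 0.987 (ECC-1) or 0.980 (T-47D), and this value was 0.989 to 0.997 for the other 14 libraries. The estradiol counts below are therefore given with and without them.

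Subunit genes ranged over several orders of magnitude. ATP5B, the catalytic β subunit of ATP synthase, had the highest mean level of all members at 787, and ATP5L2, a near-identical copy of the ATP5L gene, the lowest of complex V at 15.8. In complex IV COX4I1, the common form of a regulatory subunit, led with 204. UQCRC1, a core protein of complex III, had 147 and UQCRB, a small subunit of the same complex, 17.4. The 4 genes of complex II lay close together, from 73.1 for SDHC, a membrane anchor, to 91.2 for SDHD, the other anchor. Complex I ran from 1.04 for NDUFA4L2, a paralogue of NDUFA4 known as a hypoxia-induced gene, to 122 for NDUFB5, an accessory subunit of the membrane arm. Most members thus belonged to the well-expressed genes of both lines, as the plot of levels shows.

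**Figure D1:**
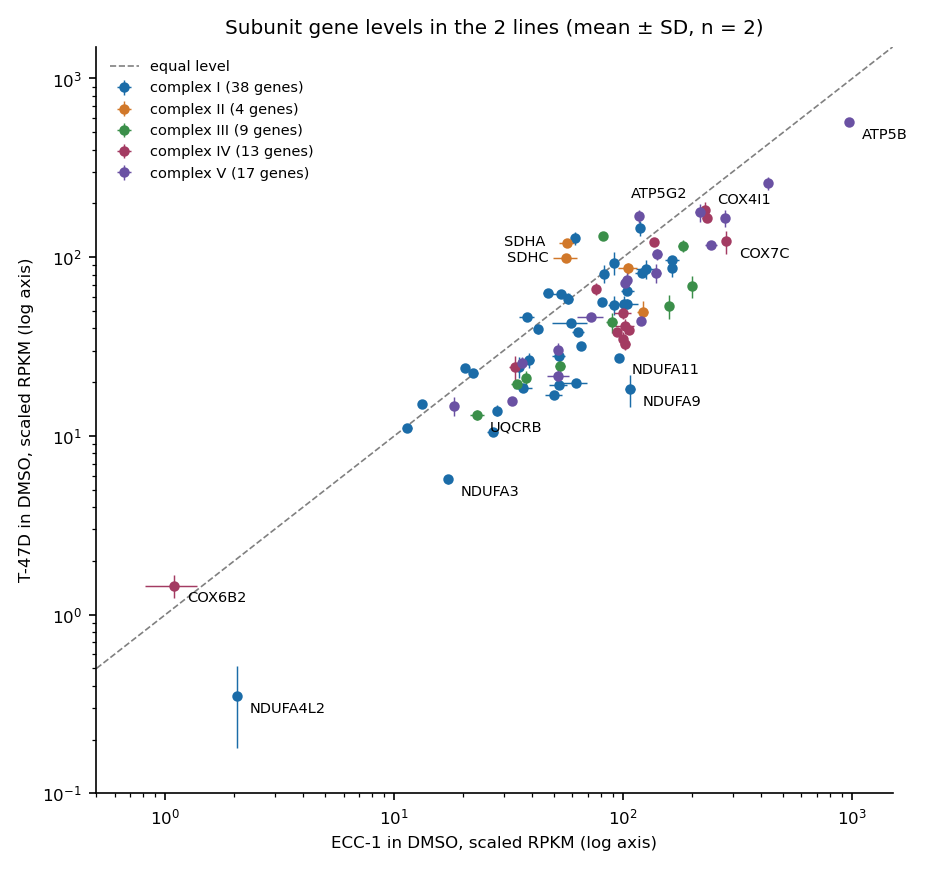
Mean level in DMSO of the 81 members that passed the filter, ECC-1 on the x axis and T-47D on the y axis, both in scaled RPKM on log axes, coloured by complex, with bars for the SD of 2 libraries and a dashed line for equal levels. Most points lie below the line, ATP5B is the highest in both lines, and SDHA, SDHC and ATP5G2 lie above the line.

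The first comparison asks how the lines differ without hormone, in DMSO. Of the 81 members, 54 had lower levels in T-47D and 6 had higher levels, by limma with Benjamini-Hochberg adjustment over all genes tested and a threshold of 0.05. COX4NB and the copy UQCRHL are among the 54. Most genes differ between these lines, since 76.7% of all genes tested were called, but these split evenly, with 39.6% higher and 37.1% lower. The members' median log2 difference was -0.73, against 0.04 over all genes. In 63 of the 81 members both T-47D libraries lay below both ECC-1 libraries, and in 12 both lay above. The share of all genes without such overlap is not given here. These counts are therefore not read as a trait of the members. The summed level of the members, without 1 gene that encodes no subunit and 3 copies, was 8226 and 7985 in the ECC-1 libraries in DMSO and 5618 and 5103 in those of T-47D. These are values for a culture as a whole, in which fewer cells with a transcript and less of it per cell cannot be told apart.

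By complex, 24 of 38 members of complex I were lower in T-47D and 2 higher. In complex II 1 of 4 was lower and 2 were higher. Complex III had 8 of 9 lower and 1 higher. Complex IV had 9 of 13 tested members lower and 0 higher, and complex V 12 of 17 lower and 1 higher. Medians were -0.62, 0.28, -0.82, -1.03 and -0.73 for complexes I to V. Thus complex II is where the counts did not lean to ECC-1, and the plot of line differences shows this gene by gene.

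**Figure D2:**
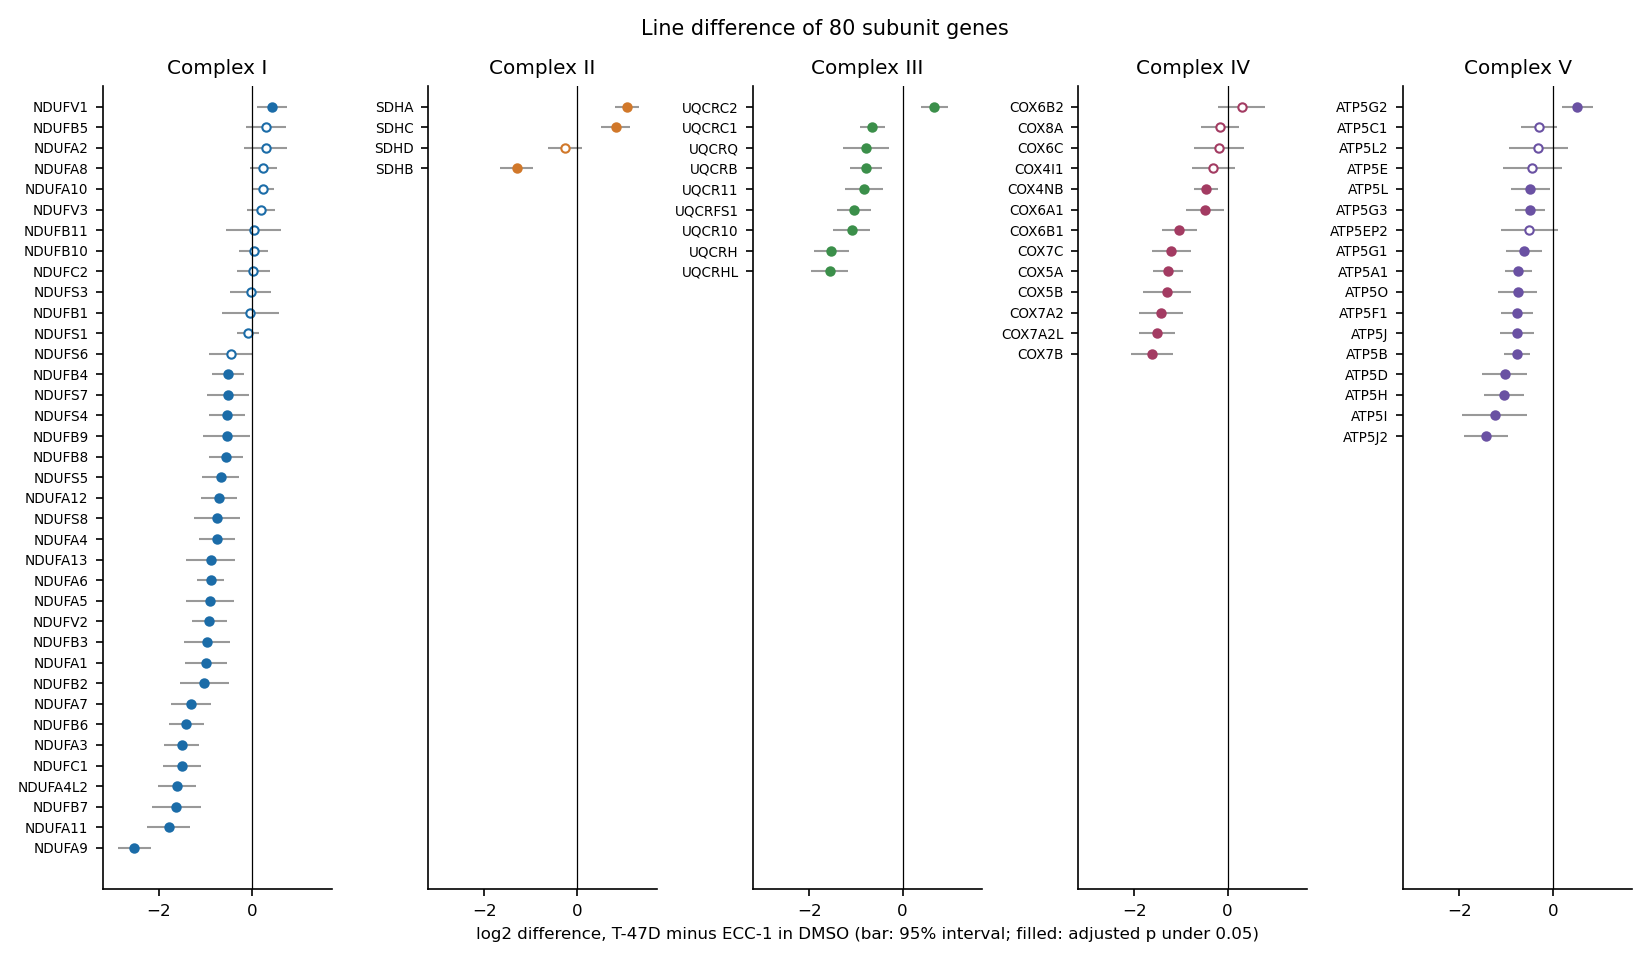
Log2 difference of T-47D minus ECC-1 in DMSO for 80 of the 81 tested members, one panel per complex. Bars are 95% intervals and filled points passed an adjusted p of 0.05 in limma; 54 filled points lie left of 0 and 5 to the right.

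Complex I showed the widest range. Its core subunits hold the flavin, the iron-sulfur clusters and the site of quinone binding. NDUFV1, the flavin-binding core subunit, had 45.2 and 48.5 in ECC-1 against 62.7 and 62.9 in T-47D (log2 0.42, adjusted p 0.0196), a call that was lost in 4 of the alternatives. NDUFV2, NDUFS8 and NDUFS7, core subunits that carry iron-sulfur clusters, were lower by -0.92, -0.75 and -0.53, with NDUFS8 and NDUFS7 not passing in every alternative. NDUFS1 and NDUFS3, further core subunits, differed by -0.09 and -0.04 and did not pass.

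Of the 29 accessory subunits of complex I, which surround the core and are needed for its assembly or stability, 19 were lower in T-47D and 0 higher, with a median of -0.68. NDUFA9, an accessory subunit of the arm that faces the matrix, had 111 and 103 in ECC-1 and 20.9 and 15.6 in T-47D. It was the largest difference of any member, at log2 -2.53 (SE 0.166, adjusted p 1.73e-09). NDUFA11, an accessory subunit of the membrane arm, had 98.4 and 94.2 against 28.0 and 26.7 (log2 -1.80). NDUFB7, of the membrane arm, had 67.4 and 56.8 against 19.9 and 19.4 (log2 -1.63). In each of these genes the T-47D libraries were low by a wide margin and the groups did not overlap. NDUFC1 (52.6 and 46.9 against 17.2 and 16.9) and NDUFA3 (17.1 and 17.3 against 5.49 and 5.93), both small membrane subunits, were lower by log2 -1.52 and -1.51. The largest positive differences among accessory subunits were those of NDUFB5 (0.29), NDUFA2 (0.28) and NDUFA8 (0.23), none of which passed. In that order they gained a call in 3, 2 and 4 alternatives. Averaged over the 4 treatments, 5 of the 29 accessory subunits were called higher and 20 lower, beside 45.6% and 42.8% of all genes.

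NDUFA4 is counted with complex I by its symbol, though its protein is now assigned to complex IV. It had 172 and 155 in ECC-1 and 97.5 and 94.5 in T-47D (log2 -0.76, adjusted p 0.00125). Its paralogue NDUFA4L2 had 2.07 and 2.06 in ECC-1 and 0.469 and 0.229 in T-47D, a difference of -1.61 on the log2(scaled RPKM + 0.5) scale, which understates changes of low genes. Both paralogues were thus higher in ECC-1, at levels far apart.

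Complex II holds 4 subunits, all of them named here, and they moved in opposite directions. SDHA, the flavoprotein that oxidises succinate, had 53.7 and 59.7 in ECC-1 and 119 and 120.2 in T-47D, about double (log2 1.07, SE 0.120, adjusted p 8.27e-07), the largest positive difference of any member. SDHB, its iron-sulfur partner in the catalytic dimer, had 117 and 127 in ECC-1 and 54.5 and 44.3 in T-47D (log2 -1.30, SE 0.165, adjusted p 3.42e-06). SDHA was therefore the higher gene of the pair in T-47D and SDHB in ECC-1, without overlap between lines in either. The anchor SDHC had 60.8 and 51.1 against 102 and 95.4 (log2 0.82, adjusted p 0.000121), and this call was lost when a trend with transcript length was removed (0.37). SDHD, the other anchor, had 111 and 97.4 against 90.9 and 82.2 (log2 -0.27) and did not pass.

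In complex III the core proteins and the Rieske subunit, 3 genes in all, split into 2 lower and 1 higher. UQCRC2, a core protein, was higher in T-47D, with 80.7 and 81.9 in ECC-1 and 136 and 126 in T-47D (log2 0.68, adjusted p 0.000277). UQCRC1, the other core protein, had 176 and 188 against 122 and 109.6 (log2 -0.65). UQCRFS1, the Rieske iron-sulfur protein that passes electrons to cytochrome c1, had 92.3 and 85.7 against 47.2 and 39.4 (log2 -1.04). All 5 small subunits were lower in T-47D, with UQCRH, the hinge protein, at 197 and 201 against 75.8 and 62.2 (log2 -1.52). The near-identical copy UQCRHL had 156 and 160 against 59.2 and 47.4 (log2 -1.56), and the sources used here do not say how reads matching both genes were counted, so neither value stands apart from the other.

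Complex IV, cytochrome c oxidase, had 7 of its 11 tested subunits lower in T-47D and 0 higher, when COX4NB and COX7A2L are set apart. COX7B, a small subunit, had 106 and 97.9 in ECC-1 and 34.5 and 31.0 in T-47D (log2 -1.62). COX5A and COX5B, which face the matrix, had differences of -1.27 and -1.30, and COX7A2 and COX7C of -1.43 and -1.21. COX7A2L, a factor of supercomplexes of the chain and known as an estrogen-responsive gene, had 102 and 98.1 against 37.2 and 32.8 (log2 -1.51, adjusted p 1.7e-06). COX4I1, COX6C and COX8A had -0.30, -0.19 and -0.17, and none passed. COX4NB, which shares the prefix but encodes a subunit of an endoplasmic reticulum membrane complex, was lower by -0.46.

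Several complex IV subunits exist as paralogues, of which one form is broad and the other is restricted to tissues such as muscle, lung or testis. Only the broad forms were abundant in these lines. COX6A2, the heart and muscle form, was listed at 0 in all 16 libraries, against a level of COX6A1 of 239 and 224 in ECC-1 and 169 and 161 in T-47D. The muscle form COX7A1 lay between 0.0419 and 0.323, and COX8C at or below 0.0997, beside COX8A at 134 and 139 in ECC-1 and 125 and 118 in T-47D. COX4I2, the lung form, was listed at 0 in 15 of 16 libraries and at 0.0624 in one ECC-1 genistein library. COX7B2 was listed at 0 in every ECC-1 library and at 0.372 to 0.863 in every T-47D library, so the groups did not overlap at a level too low to test. COX6B2, the testis form, was low in both lines (1.29 and 0.899 against 1.31 and 1.60, log2 0.30), with COX6B1 at 106 and 94.0 against 50.8 and 46.3 (log2 -1.03). COX6A1 was lower in T-47D by -0.49, a call that ended in 7 alternatives and changed sign to 0.06 under quantile normalization.

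ATP synthase has a catalytic head, F1, and a part in the membrane, joined by stalks. Of the 5 genes of the F1 part 3 were lower in T-47D, with ATP5B at 968 and 977 in ECC-1 and 592 and 552 in T-47D (log2 -0.77, adjusted p 7.73e-05), but ATP5B moved to 0.04 and no longer passed under quantile normalization. All 7 genes of the stalks and the membrane part were lower. Examples are ATP5J2 with 119 and 119.5 against 42.2 and 45.6 (log2 -1.43) and ATP5I with 47.9 and 56.1 against 23.1 and 20.2 (log2 -1.25). The call of ATP5L (log2 -0.48) was lost in several alternatives, among them quantile normalization. That of ATP5J (log2 -0.77) was lost with the length trend removed. The ring that turns in the membrane is built from subunit c, whose mature protein is the same from 3 genes. ATP5G1 had 78.8 and 65.4 in ECC-1 and 47.8 and 45.4 in T-47D (log2 -0.62, but -0.08 with the length trend removed, which ended the call), and ATP5G3 37.5 and 34.7 against 27.1 and 24.1 (log2 -0.49). ATP5G2, with 118 and 117 against 179 and 159, went the other way (log2 0.52, adjusted p 0.00676), so that it was the highest of the 3 in both lines. Leaving out the first ECC-1 DMSO library ended the calls of ATP5G1 and ATP5G3, leaving out the second T-47D DMSO library that of ATP5G3, and leaving out the first T-47D DMSO library that of ATP5G2. The copies ATP5EP2 and ATP5L2 did not pass and cannot be told from ATP5E and ATP5L.

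Promoters are shown for members whose windows hold motifs of 2 factors known to bind nuclear respiratory genes, NRF1 and GABP, an ETS factor. The windows, from RefSeq on GRCh38.p14, run from 250 bases before to 50 after a gene's start, and 69 of the 86 members matched one. The 8 letters GCGCATGC of the NRF1 core, sought on both strands, were found in 14 members or 20.3%, against 6.36% of the 10611 tested genes with a window and 3.68% of 27305 genes. The ETS letters CCGGAAGT were found in 11 members or 15.9%, against 9.76% and 4.95%. In 22 members either motif was present, and ATP5J, COX5B and SDHD held both. The stretches below are those of a gene with both motifs that was lower in T-47D, a gene with both that did not pass, and a lower and a higher gene with the NRF1 core, with the motifs in capitals, read 5′ to 3′ on the gene's strand.
COX5B, chr2:97645906-97646052, plus strand: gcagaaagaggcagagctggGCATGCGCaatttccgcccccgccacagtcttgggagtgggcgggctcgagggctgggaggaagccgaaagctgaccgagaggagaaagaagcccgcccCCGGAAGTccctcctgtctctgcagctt
SDHD, chr11:112086743-112086822, plus strand: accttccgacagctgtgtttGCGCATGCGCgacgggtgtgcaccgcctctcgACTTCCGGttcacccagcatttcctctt
SDHB, chr1:17054205-17054252, minus strand: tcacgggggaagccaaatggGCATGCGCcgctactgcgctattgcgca
ATP5G2, chr12:53676096-53676143, minus strand: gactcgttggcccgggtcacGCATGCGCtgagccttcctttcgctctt

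In the SDHD stretch 2 NRF1 cores overlap and read as one palindromic run. SDHB and ATP5G2 share the same core letters in their windows, yet SDHB was lower in T-47D and ATP5G2 higher. A match is a description of the letters and not a measured site. Binding was not analysed here.

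Transcript length moved with the line difference and differs between members and other genes, so it is given beside these counts. The median transcript length was 977 bases for members and 2868 for all genes tested, by the GENCODE 29 transcripts paired with the RefSeq accessions, which may differ from the authors' models. Among transcripts under 1000 bases 33 of 41 members were lower in T-47D and 0 higher, with a median of -0.89. Over all 883 genes of that length 55.9% were lower and 22.7% higher, with a median of -0.65. For 1000 to 3000 bases the medians were -0.46 over 27 members and -0.07 over 5960 genes, and from 3000 bases -0.61 over 10 members and 0.21 over 6166. Members lay below the genes of their own length class in each class, as the plot by length shows. With a smooth trend of log2 values on length removed, 43 members were lower and 12 higher, with a median of -0.49. The share of all genes called in this setting is not given here, so these counts are not set against it. The part of length in the line difference was not tested beyond this.

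**Figure D3:**
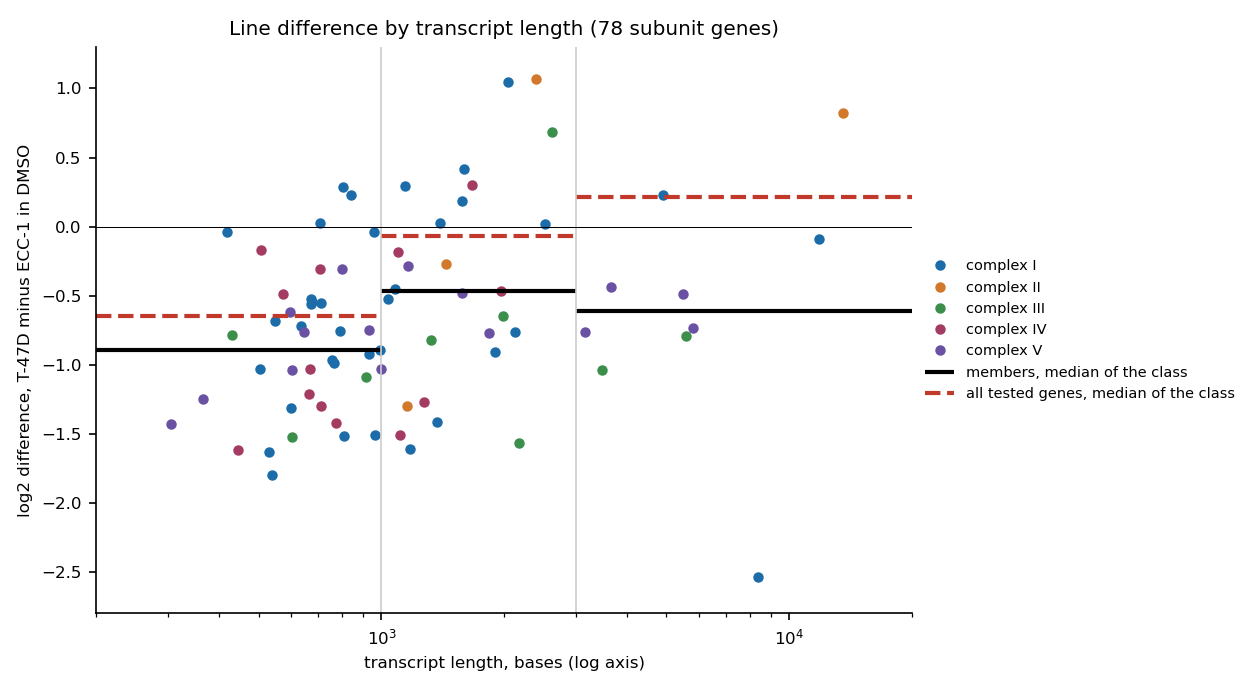
Log2 difference of T-47D minus ECC-1 in DMSO (y axis) against transcript length in bases (x axis, log scale) for the 78 tested members with a length, coloured by complex. Solid lines are the medians of members in 3 length classes (-0.89, -0.46 and -0.61) and dashed lines those of all tested genes (-0.65, -0.07 and 0.21).

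Averaged over the 4 treatments, which uses all 16 libraries, 58 members were lower in T-47D and 12 higher, with a median of -0.58. Over all genes 88.4% were called in this comparison, with 45.6% higher and 42.8% lower. In complex I 25 were lower and 7 higher, and in complex II 2 and 2, as SDHD then passed on the lower side. Without both first estradiol libraries this average gave 64 lower and 11 higher with a median of -0.70, and 90.9% of all genes were called. Refitted without them, the comparison in DMSO, whose groups do not hold them, gave 60 lower and 10 higher. In that refit the differences stay the same and only the shared estimate of the spread changes. The share of all genes called in it is not given here. Of the calls in DMSO, 37 lower and 3 higher, SDHA and UQCRC2 among the latter, passed in every alternative tried for that member.

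Genes that assemble, feed or regulate the chain were looked at in lists of related genes, whose counts in DMSO stand beside the 37.1% lower and 39.6% higher of all genes tested. Of 34 assembly factors tested 15 were lower in T-47D and 4 higher, with a median of -0.17. NDUFAF4, an assembly factor of complex I, had the largest difference (-2.78), with C20orf7 (-1.74) and NDUFAF2 (-1.29) of the same complex and BCS1L of complex III (-1.15) next. NUBPL, which inserts iron-sulfur clusters into complex I, was higher by 1.04 and SURF1, of complex IV, by 0.84. Among 11 other subunits and electron carriers 4 were lower and 3 higher, with USMG5, a small ATP synthase subunit, at -2.30, cytochrome c (CYCS) at -1.49, and on the other side ETFDH, which feeds electrons from fatty acid oxidation to quinone, at 1.35 and ATP5S, coupling factor B, at 1.20.

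Of 14 enzymes of the citric acid cycle 5 were lower and 5 higher, with a median of -0.04. IDH2, the NADP-linked isocitrate dehydrogenase, was higher by 1.67, and the succinyl-CoA ligase subunits SUCLG1 and SUCLA2 and the dehydrogenase subunit DLD were lower by -0.98, -0.96 and -0.83. Of 7 carriers and pores 4 were lower and 0 higher. SLC25A5 and SLC25A4, which exchange ADP and ATP across the inner membrane, differed by -2.03 and -1.85, and VDAC2, an outer membrane pore, by -0.96. SLC25A3, the phosphate carrier, differed by -0.35, a direction that changed to 0.31 under quantile normalization. Among 17 regulators tested 10 were lower and 1, GABPB2, was higher (1.42). TFB2M (-1.18), TFB1M (-0.90) and TFAM (-0.70) of mitochondrial transcription, the coactivators PPARGC1A (-0.88) and PPARGC1B (-0.72), and NRF1 (-0.55) were on the lower side, while GABPA (-0.18) and ESRRA (0.26) did not pass.

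The second comparison asks whether estradiol moved these genes within 8 h. In ECC-1 no member passed the threshold: limma called 0 of 81 members, with 1.89% of all genes called, and 17 members had an unadjusted p under 0.05, all lower, where 7.12% of all genes had such a p on the lower side and 15.4% on either side. Of the 81 members 76 had a negative difference, with a median of -0.34 against 0.00 over all genes. Both estradiol libraries lay below both DMSO libraries in 35 members, where 21.8% of all genes did so, and above in 0, where 21.7% did. The 3 largest differences were those of NDUFA4, NDUFA2, an accessory subunit of the matrix arm, and the copy ATP5L2. NDUFA4 had 172 and 155 in DMSO and 86.0 and 139 with estradiol (log2 -0.58, SE 0.180, adjusted p 0.142). NDUFA2 had 39.8 and 35.8 against 20.2 and 32.0 (log2 -0.56), and ATP5L2 18.5 and 18.1 against 9.55 and 16.6 (log2 -0.52). In each of them the first estradiol library was far below DMSO and the second closer to it.

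That holds across the members. In the first estradiol library of ECC-1 77 of 81 members lay below the DMSO mean, with a median of -0.59, and in the second 56 did, with a median of -0.05. In the first, short transcripts of all genes also had a median of -0.46 and long ones of 0.18, while in the second these were -0.06 and 0.00. With the first library alone, assumed to vary like the other groups, 36 members were called lower and 15.6% of all genes were called. With the second alone 0 members and 0.817% of all genes were called, and the members' median was -0.05. The summed level was 5630.0 in the first and 8041 in the second, next to 8226 and 7985 in DMSO. The part of this library's length pattern in the members' values was not tested, but with the length trend removed the members' median was -0.17.

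In T-47D the values leaned the other way. Limma called 0 of 81 members with estradiol, with 3.22% of all genes called, and 7 members had an unadjusted p under 0.05, all higher, where 8.24% of all genes had such a p on the higher side and 14.8% on either side. Positive differences were seen in 69 members, with a median of 0.22 against -0.01 over all genes. Both estradiol libraries lay above both DMSO libraries in 14 members, where 16.9% of all genes did, and below in 1, where 16.4% did. NDUFB7 had 19.9 and 19.4 in DMSO and 44.1 and 21.7 with estradiol (log2 0.64, SE 0.245, adjusted p 0.217). NDUFA13, an accessory subunit also known as GRIM-19, had 59.1 and 49.9 against 119 and 58.9 (log2 0.62), and NDUFS8 58.6 and 49.2 against 111 and 56.7 (log2 0.56). Again it was the first estradiol library that stood apart, here upward.

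In the first estradiol library of T-47D the members' median was 0.42 and 70 of 81 lay above the DMSO mean, and in the second it was 0.01 with 43 above. Short transcripts of all genes had a median of 0.43 in the first and long ones of -0.14, against 0.06 and -0.01 in the second. With the first library alone 30 members were called higher and 1 lower, with 22.6% of all genes called, and with the second alone 0 members and 2.02% of all genes. The summed level was 7067 in the first and 5514 in the second, next to 5618 and 5103 in DMSO. With the length trend removed the members' median was 0.07. The sum of the luminal marker list, most of it keratins KRT8 and KRT18, moved in the same directions as the members. In ECC-1 it was 3727 to 3858 in DMSO and 2307 to 2898 with estradiol. In T-47D it was 3939 to 4071 and 5101 to 5722. KRT18 differed by -0.61 and 0.62 with estradiol in ECC-1 and T-47D and KRT8 by -0.52 and 0.55, none of which passed, and the line responses differed for KRT18 (log2 1.23, adjusted p 0.0341). The other markers of the list went the opposite way, and none passed within a line. FOXA1 differed by 0.10 in ECC-1 and -0.50 in T-47D, and SPDEF by 0.52 and -0.35. GATA3 differed by 0.07 and -0.22, and TRPS1 by 0.14 and -0.18. GATA3 and SPDEF were under 1 in every ECC-1 library. The part of these markers in the members' values was not tested. The plot of members by library shows these 2 libraries against the other 14.

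**Figure D4:**
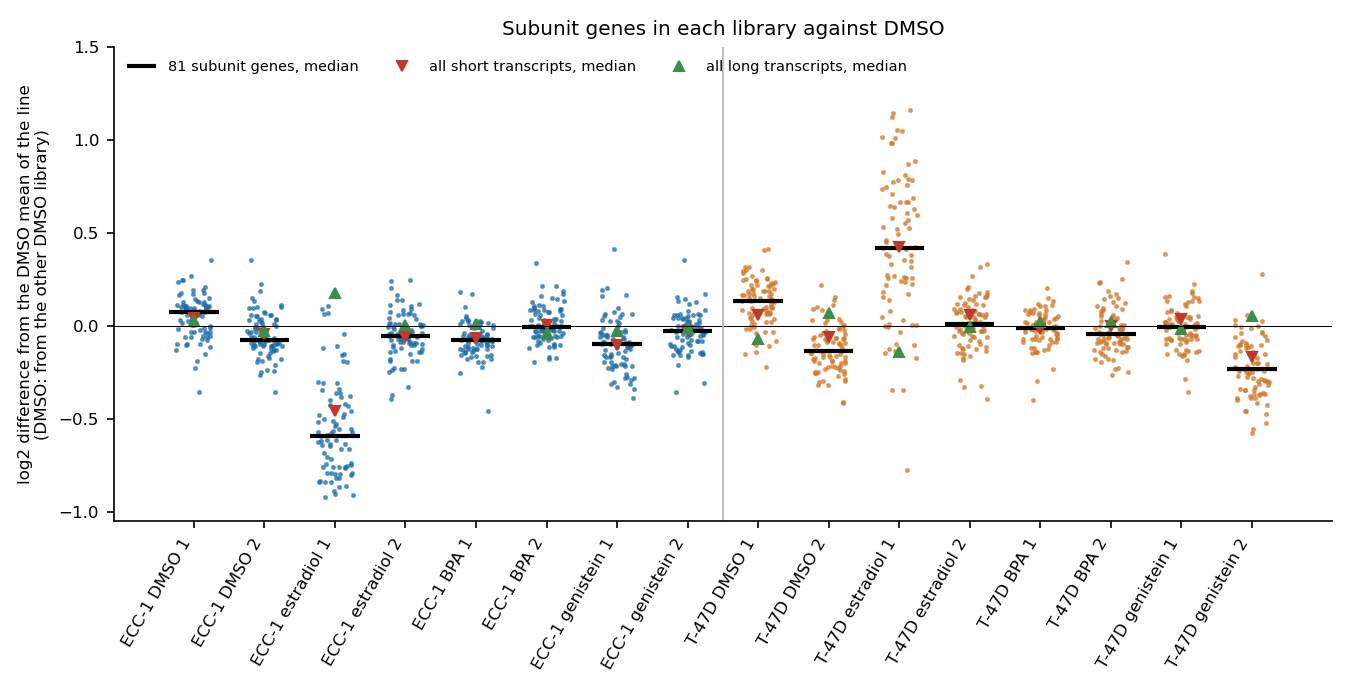
Log2 difference of each of the 81 tested members (points) from the mean of its line's DMSO libraries, by library; each DMSO library is compared with the other one. Black bars are members' medians, and triangles are medians of all short (under 1000 bases, red) and long (from 3000 bases, green) transcripts. The first estradiol library has a members' median of -0.59 (ECC-1) or 0.42 (T-47D).

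The difference between the lines in the estradiol response was tested as an interaction. Limma called 1 of 81 members, NDUFA3, with 1.73% of all genes called, and 32 members had an unadjusted p under 0.05, all with a more positive response in T-47D, where 8.54% of all genes had such a p in that direction and 16.5% in either. NDUFA3 had 17.1 and 17.3 in DMSO and 10.9 and 13.2 with estradiol in ECC-1, and 5.49 and 5.93 against 10.2 and 7.31 in T-47D. Its estradiol libraries thus lay below both DMSO libraries in ECC-1 and above both in T-47D, and the line responses differed by log2 1.06 (SE 0.248, 95% interval 0.53 to 1.59, adjusted p 0.0431). Its call was lost in 13 of 19 alternatives, and without both first estradiol libraries the difference was 0.70 and 0 members were called. The same pattern of libraries below in ECC-1 and above in T-47D was seen in 5 members, NDUFA3, NDUFB4, NDUFB7, NDUFC1 and NDUFV3, or 6.17%. The reverse pattern was seen in 0 members. Over all genes 6.38% had opposite directions in the 2 lines, whichever line was the higher. The share of all genes with the members' order alone is not given here, so the 2 percentages are not compared.

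With BPA no member passed the test in either line. In ECC-1 limma called 0 of 81 members, with 0.195% of all genes called, and 0 had an unadjusted p under 0.05. The 3 largest differences were -0.32 for NDUFA4L2 (2.07 and 2.06 in DMSO, 1.37 and 1.75 with BPA), 0.25 for NDUFA11 (98.4 and 94.2, then 108 and 122) and -0.16 for NDUFA6, an accessory subunit (54.7 and 50.0, then 46.8 and 46.6). In T-47D limma called 0 members, with 0.0% of all genes called, and again 0 had an unadjusted p under 0.05. NDUFB3, an accessory subunit of the membrane arm, had 18.2 and 18.7 in DMSO and 16.7 and 15.5 with BPA (log2 -0.20), NDUFS4, an accessory subunit near the NADH site, 28.4 and 24.7 against 29.1 and 31.6 (0.19), and ATP5I 23.1 and 20.2 against 16.3 and 22.1 (-0.18). The median 95% interval of a treatment difference over all genes, without adjustment for the number of genes, reached 0.332 to either side. For a gene with an interval of that width, a smaller observed change did not reach an unadjusted p of 0.05 in limma. Larger changes could also miss the adjusted threshold, and genes with narrower or wider intervals had other limits. The difference between the lines in the response to BPA was called in 0 members, with 0.0434% of all genes called and 0 members at an unadjusted p under 0.05, and was largest for NDUFS4 (0.30), NDUFA4L2 (0.27) and NDUFS8 (0.26).

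Genistein also gave no call. In ECC-1 limma called 0 of 81 members, with 0.969% of all genes called and 0 members at an unadjusted p under 0.05. NDUFA11 had 98.4 and 94.2 in DMSO and 128 and 123 with genistein, above without overlap (log2 0.38, 95% interval -0.07 to 0.84, adjusted p 0.784), and it passed in 2 alternatives, with array weights and without the first estradiol libraries. NDUFB4, an accessory subunit of the membrane arm, had 83.2 and 78.9 against 61.9 and 72.2 (log2 -0.28), and NDUFA4L2 2.07 and 2.06 against 1.82 and 1.504 (log2 -0.25), both below without overlap. In T-47D limma called 0 members, with 0.803% of all genes called and 0 members at an unadjusted p under 0.05.

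The T-47D members leaned downward with genistein, with 71 of 81 negative and a median of -0.12. The DMSO libraries of T-47D stood as far apart from each other, with 68 of 81 members higher in the first and a median difference of 0.13. In the second genistein library 75 of 81 members lay below the DMSO mean, with a median of -0.23, and in the first 45 did, with a median of -0.01. Of all genes 50.1% lay above the DMSO mean in the second library and 48.4% in the first. In the second, short transcripts of all genes had a median of -0.16 and long ones of 0.05. The part of this length pattern in the members' values was not tested. NDUFB3 had 14.3 and 14.4 with genistein (log2 -0.35), ATP5J, a stalk subunit, 26.5 and 21.6 against 32.3 and 28.2 in DMSO (-0.33), and COX6C 62.2 and 45.2 against 63.2 and 70.4 (-0.33). The difference between the lines in the response to genistein was called in 0 members, with 0.586% of all genes called and 0 members at an unadjusted p under 0.05, and was largest for NDUFA11 (-0.50), NDUFA4L2 (0.43) and NDUFA3 (0.29).

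The subunit genes gave 1 call in all treatment tests, and a few of the 17 regulators tested were called. Most of these calls were lost in some alternatives. Of all genes, 1.89% were called with estradiol and 0.969% with genistein in ECC-1, and 3.22% with estradiol in T-47D. PPARGC1B, a coactivator that raises nuclear respiratory genes, had 1.07 and 0.972 in ECC-1 in DMSO and 3.998 and 2.38 with estradiol. Both libraries were above, the first by more, and the rise passed (log2 1.24, adjusted p 0.000799, and log2 0.92 without the first library) in every alternative tried for it. With genistein PPARGC1B had 2.28 and 2.24 (log2 0.86, adjusted p 0.0258, lost in 6 alternatives), and with BPA 1.41 and 1.43 (log2 0.34, adjusted p 1.00). In T-47D it stayed between 0.411 and 0.692 in all 8 libraries, and the difference between the lines in its estradiol response (log2 -0.95) missed the threshold with an adjusted p of 0.0752. PPRC1, a related coactivator, had 17.6 and 19.9 in ECC-1 in DMSO and 37.9 and 26.5 with estradiol (log2 0.75, adjusted p 0.0285), a call lost in 7 alternatives, among them that without the first estradiol library (0.49).

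PPARGC1A, the best known coactivator of mitochondrial biogenesis, went the other way in ECC-1. With estradiol its difference there was log2 -0.56 and did not pass in limma (adjusted p 0.0847). It had 1.67 and 1.52 in DMSO and 0.721 and 0.895 with genistein (log2 -0.68, adjusted p 0.0492), and 0.568 and 0.713 against 0.902 and 1.08 in T-47D. The responses of the lines to genistein differed by log2 1.07 (adjusted p 0.0332). Both genistein calls were lost whichever library of the compared groups was left out. At these low levels they were also lost with a pseudocount of 0.1. C10orf2, the helicase of mitochondrial DNA replication, rose with estradiol in T-47D, from 4.54 and 5.33 to 8.55 and 7.73 (log2 0.67, adjusted p 0.0310), a call that 7 alternatives ended, among them that without the first estradiol library (0.60). C10orf2 also differed by 0.56 with estradiol and 0.51 with genistein in ECC-1, and by 0.50 with genistein in T-47D, none of which passed. The plot of regulators by treatment shows all 16 values of each gene.

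**Figure D5:**
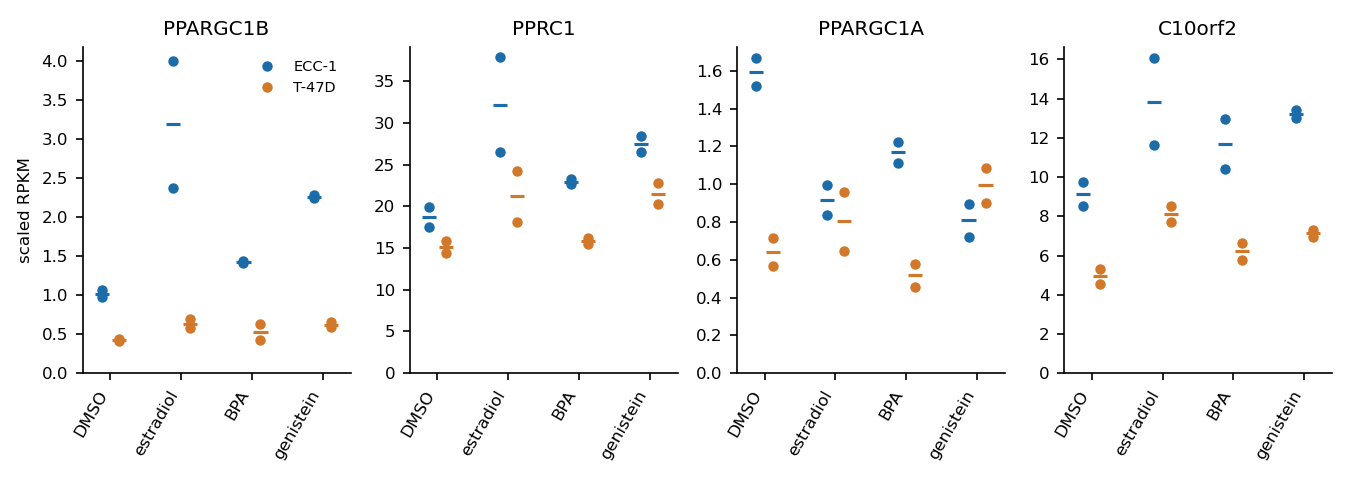
Level in scaled RPKM (y axis) of 4 regulators by treatment (x axis), with 1 point per library and a bar for the mean of 2, ECC-1 in blue and T-47D in orange. PPARGC1B is highest with estradiol in ECC-1 (3.998 and 2.38) and stays at or below 0.692 in T-47D.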

How the data were processed

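RNA sequencing of polyadenylated RNA was done in 16 libraries. The authors deposited RPKM values for 32062 RefSeq transcripts per library. The submitters' processing notes name Bowtie and the build hg19 without versions, and the method of counting reads is not stated in any source used here. Libraries keep no strand, per the labels' protocols, so overlapping genes cannot be told apart.

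RPKM was divided by a scale factor per library (0.938 to 1.05, from 7547 genes that reach 5 RPKM in every library), and log2(scaled RPKM + 0.5) was fitted in limma 3.58.1 (R 4.3.3) with 8 group means and a trend (8 residual and 6.9 prior degrees of freedom). P-values are two-sided and adjusted by Benjamini-Hochberg over 13827 genes, with a threshold of 0.05; the fit was tested on simulated data. Depth came from RPKM steps: 62.3 to 64.5% of values under 10 reads lay within 0.1 of a whole number. RPKM keeps no exact counts, so no count test was run.

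Members and lists were chosen with earlier results of these data known. The text names called members, the 10 largest line differences in each direction, paralogue sets, the highest and lowest member of each complex, the 3 largest changes where none was called, up to 4 called genes per list and any regulator. Other members are named as parts of a complex, chosen after their values were seen, and so were the role groups within complexes. Of the 38 assembly factors 4 symbols were not matched. Alternatives were other scalings, pseudocounts and filters, summed rows, a replicate block, array weights, removal of a length trend and left-out libraries. The values of 1 member are not reported here, though it counts among the members.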

Additional observations from a re-analysis of the deposited data

Results flagged for a closer look

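One result met a rule for a closer look: the response of NDUFA3 to estradiol differed between the lines by log2 1.06, by the interaction in limma. Its level lay above DMSO in both T-47D estradiol libraries and below DMSO in both ECC-1 estradiol libraries, though neither response passed on its own (log2 0.56, adjusted p 0.121, and -0.51, adjusted p 0.191). The first estradiol library was the more extreme in each line. In those libraries short transcripts of all genes moved in the same directions (-0.46 in ECC-1 and 0.43 in T-47D), and the NDUFA3 transcript has 963 bases. Without both first libraries the difference was 0.70, and with a length trend removed 0.69, and it passed in neither. The call was lost in 13 of 19 alternatives in all. The part of these libraries in the result was not tested further.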

How the results depend on the processing

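The count of members called between the lines in DMSO, 60 in all, stayed within 1.5 times under every alternative, from 50 to 56 without single libraries to 70 without both first estradiol libraries. Scalings gave 55 lower and 5 higher as deposited, 49 and 8 under quantile normalization, and 43 and 12 with the length trend removed. The shares of all genes called under these alternatives are not given here. Without single libraries the counts ran from 0 to 36 for estradiol in ECC-1, from 0 to 31 for estradiol in T-47D and from 0 to 39 for the estradiol interaction. The interaction had 1 call, and 0 with a pseudocount of 0.1, without the filter, with array weights, with genes kept from a mean of 5 RPKM, with the length trend removed and without both first estradiol libraries. Genistein in ECC-1 had 1 call with array weights and 1 without both first estradiol libraries. With replicate numbers as a block the estradiol interaction had 0 calls (NDUFA3 at an adjusted p of 0.0596) and the line difference in DMSO 61. The numbers were not taken to pair the libraries, since the correlations of same-numbered libraries (-0.22 to 0.41) were not all over 0.1. Directions reversed for ATP5I with BPA in T-47D without the first BPA library (0.0314, and -0.40 without the second) and for SLC25A3 between lines under quantile normalization (0.31). Of 1108 alternative values for 71 named values, 1030 kept direction and side of the threshold, 60 lost and 16 gained a call, and 2 reversed. Outside that tally, among the 60 calls between the lines, ATP5B (0.04) and COX6A1 (0.06) also changed sign under quantile normalization. With 2 libraries a group and a median unadjusted 95% interval of 0.332 to either side, smaller treatment changes were not detectable. Larger ones could also miss the adjusted threshold.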
